A study of Homo sapiens with 9 samples.

Results

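The genes described here are the FAM210 paralogs FAM210A and FAM210B and 7 enzymes of heme synthesis, ALAS1, ALAD, UROS, UROD, CPOX, PPOX and FECH. They were chosen by name, as rows of the array table that the platform annotation pairs with that single symbol, and each of the 9 had exactly 1 row among 22411 genes with a row. RNA was measured on 9 whole-transcript arrays of A549, a cell line from a human lung adenocarcinoma, 72 h after siRNA transfection. Of these, 3 arrays were of cells given siRNA against FAM210B (si-FAM210B), 3 of cells given siRNA against UQCRC2, a core subunit of respiratory complex III (si-UQCRC2), and 3 of cells given a negative control siRNA. All groups were thus transfected wild-type cells of a single line, each siRNA was a mixture, and the arrays of a group are labelled biological replicates with nothing on whether cultures were separate. Values are log2 RMA signals, in which a difference of 1 is a doubling, and a level is not compared between genes because each row has its own probes.

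Heme is built in a relay between mitochondria and cytosol. ALAS1 starts it in the mitochondrial matrix and is the rate-limiting, heme-repressed enzyme outside red cell precursors. ALAD, UROS and UROD then assemble, close and trim the tetrapyrrole ring in the cytosol, CPOX and PPOX oxidise it back in the mitochondrion, and FECH inserts iron. FAM210B is a mitochondrial membrane protein which, in mouse erythroid cells, is needed for full heme synthesis. Its paralog FAM210A, also mitochondrial, has been studied in mouse muscle, heart and bone. The comparisons ask whether RNA of the remaining members differs once FAM210B, or an unrelated mitochondrial gene, is targeted.

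RefSeq (GRCh38.p14) held start-site windows, from 250 bases before to 50 after the start, for 8 of the 9 members, without UROS. Those of both paralogs and of ALAS1, the pathway's first enzyme, are shown 5′ to 3′ because these genes carry the comparisons of the targeted gene, its relative and the rate-limiting step. Capitals mark matches on either strand to 4 motifs, the NRF1 palindrome, the GATA motif AGATAA, the E-box CACGTG and the antioxidant response element TGACNNNGC. No motif overlapped another in these windows.
FAM210B (chr20:56358724-56359023, plus strand): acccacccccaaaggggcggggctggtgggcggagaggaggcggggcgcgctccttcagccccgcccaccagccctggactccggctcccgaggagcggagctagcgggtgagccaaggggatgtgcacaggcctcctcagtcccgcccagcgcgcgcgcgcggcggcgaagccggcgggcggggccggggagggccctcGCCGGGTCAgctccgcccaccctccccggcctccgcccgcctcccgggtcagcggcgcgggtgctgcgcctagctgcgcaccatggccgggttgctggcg
FAM210A (chr18:13726509-13726808, minus strand): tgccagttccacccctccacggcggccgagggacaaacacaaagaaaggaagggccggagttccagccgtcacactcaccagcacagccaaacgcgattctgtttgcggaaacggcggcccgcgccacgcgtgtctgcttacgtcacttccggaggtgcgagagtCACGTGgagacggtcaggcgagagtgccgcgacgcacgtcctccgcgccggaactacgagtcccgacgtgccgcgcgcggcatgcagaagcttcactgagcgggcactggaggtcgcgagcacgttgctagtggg
ALAS1 (chr3:52197833-52198132, plus strand): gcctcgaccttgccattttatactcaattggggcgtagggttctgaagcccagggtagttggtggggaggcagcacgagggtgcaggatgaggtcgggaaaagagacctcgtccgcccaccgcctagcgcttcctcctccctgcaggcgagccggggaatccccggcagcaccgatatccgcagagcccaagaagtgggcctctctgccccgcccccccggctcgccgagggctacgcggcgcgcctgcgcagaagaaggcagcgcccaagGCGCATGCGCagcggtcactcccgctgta

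The NRF1 palindrome, found in 1.24% of 35116 RefSeq windows of this length, was matched in ALAS1, beginning at base 22 after the start, and in no other member. An E-box (7.26% of windows) lay 85 bases before the FAM210A start, and an antioxidant response element (13.3%) lay 50 bases before that of FAM210B and 38 before that of FECH. The GATA motif, found in 10.3% of windows, was matched in CPOX, at 207 and 125 bases before the start, and in a window of PPOX. ALAD and UROD held none of the 4. The windows were rich in G and C, from 54.0% in UROD to 79.0% in FAM210B. A match describes letters in a window and is not evidence that a factor binds there.

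The arrays differed more within si-FAM210B than within the other groups. The median within-group SD of a gene was 0.130 in si-FAM210B, 0.0878 in control and 0.0379 in si-UQCRC2. On the first principal component (55.3% of variance), si-FAM210B replicate 1 (-33.2) lay away from its group (-0.908 and -8.39), as did control replicate 3 (-6.99 against 12.1 and 9.87). Results of the members, and of some list genes, are therefore also given without both of these arrays. Within a group, no pair of arrays shared more than 16 identical values of 67528. UQCRC2, the check of the other siRNA, read 36.0% of its control signal in si-UQCRC2 (log2 difference -1.47 ± 0.14, SE, n = 3 per group, limma adjusted p = 0.000375). All 10 markers of A549-type epithelium reached the level cut in these cells, as did 4 of 7 markers of other cell types.

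None of the 9 members was called changed in any comparison, a call being a limma p under 0.05 after Benjamini-Hochberg adjustment over all 15964 genes tested. Over all genes, 6.28% were called in si-FAM210B against control (2.78% higher, 3.5% lower), 4.46% in si-UQCRC2 against control (3.02% higher, 1.44% lower) and 9.78% between the siRNAs (3.28% higher and 6.5% lower in si-FAM210B). At an unadjusted p under 0.05, 3 members passed in si-FAM210B (ALAS1, UROD and FAM210A), 1 in si-UQCRC2 (FAM210A) and 1 between the siRNAs (UROD), beside 26.1%, 15.1% and 30.3% of all genes. The F test over the 3 groups called 1849 genes (11.6%) and no member, the smallest adjusted p being 0.0907 for UROD. The 95% intervals of the members' log2 differences had half-widths of 0.11 to 0.20 in each comparison. Both control comparisons use the same 3 control arrays.

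**Figure D1:**
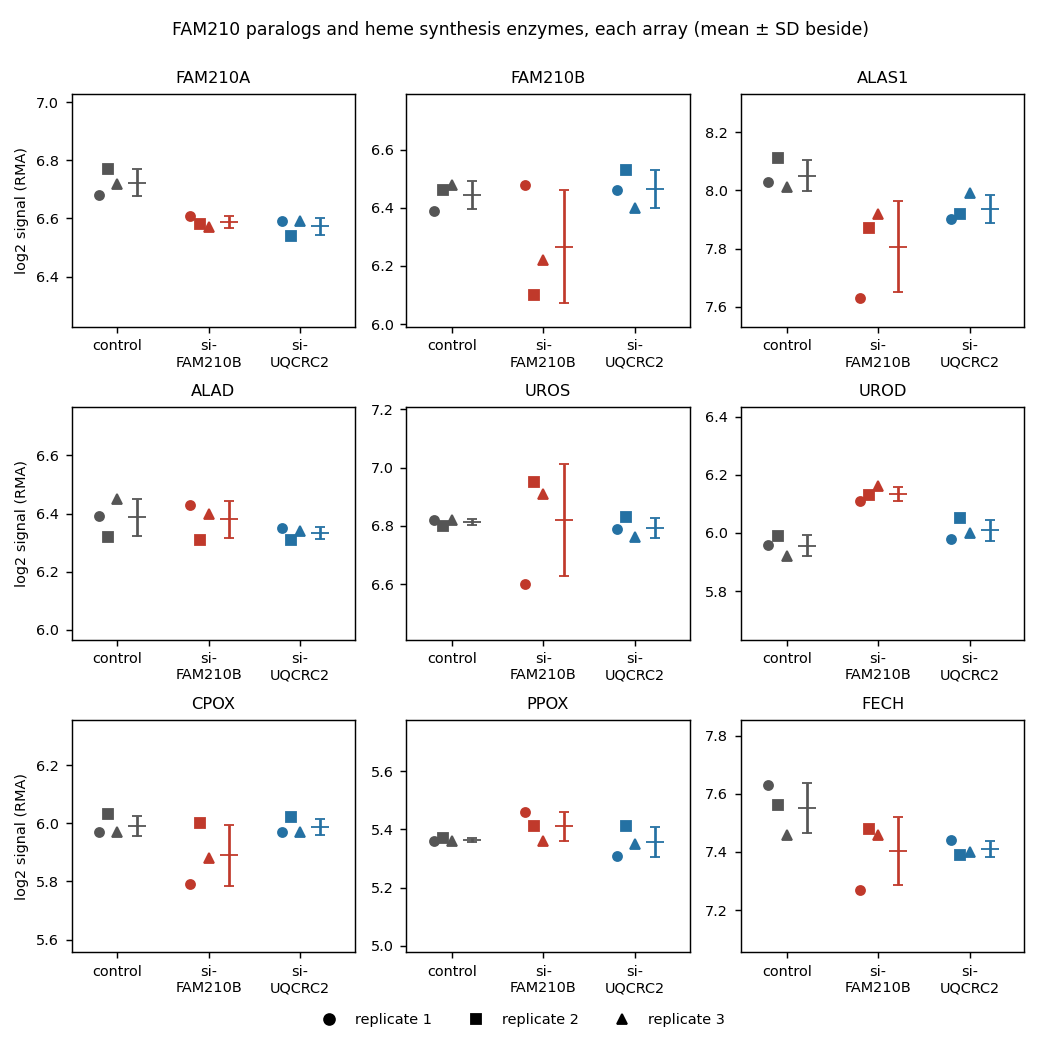
Each panel plots the log2 RMA signal (vertical axis, the same 0.8-unit span in every panel) of 1 member in the 3 groups; symbols are single arrays by replicate number and the bar beside them is the mean ± SD of 3 arrays. FAM210A is lower in both siRNA groups than in every control, and the si-FAM210B symbols of FAM210B and UROS spread over more than 0.3 units.

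FAM210B, the targeted gene, read 6.10 and 6.22 on si-FAM210B replicates 2 and 3 but 6.48 on replicate 1. Controls gave 6.39, 6.46 and 6.48, and si-UQCRC2 arrays 6.46, 6.53 and 6.40. A pair of knockdown arrays thus lay below all 6 others, while replicate 1 equalled the highest control, so the groups overlapped. The mean remaining signal was 88.7% of control, with a 95% interval from 77.2% to 102% (log2 difference -0.17 ± 0.09, SE, n = 3 per group, limma adjusted p = 0.239). Against si-UQCRC2 the FAM210B difference was -0.20 ± 0.09 (adjusted p = 0.173). Without si-FAM210B replicate 1 and control replicate 3, FAM210B fell by 0.26 against control (adjusted p = 0.0211) and by 0.30 against si-UQCRC2 (adjusted p = 0.00819). In that fit 24.4% and 24.0% of all genes were called. Leaving out single arrays moved the FAM210B difference from control both ways, to -0.28 without si-FAM210B replicate 1 (adjusted p = 0.0251) and to -0.09 without si-FAM210B replicate 2 (adjusted p = 0.414). The array labelled si-FAM210B replicate 1 thus shows no lower signal of its target, and si-FAM210B directions below are those of the arrays so labelled. On that array PDK4 (4.64, controls 5.95 to 6.23) and HMOX1 (8.29, controls 7.76 to 7.84) read near its partners. FAM210B, UROS and UQCRC2 (9.25, against a mean of 9.82 on its partners) did not. These genes are picked examples and do not check the label of the array. The cause of its FAM210B reading was not tested. These are bulk lysates, in which fewer transfected cells and less RNA per cell cannot be told apart.

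FAM210A was lower in both siRNA groups, within narrow replicate scatter. It read 6.68, 6.77 and 6.72 on the controls, 6.61, 6.58 and 6.57 in si-FAM210B, and 6.59, 6.54 and 6.59 in si-UQCRC2. Every array of either siRNA lay below every control, and the siRNA groups overlapped each other. Relative to control the signal was 91.2% in si-FAM210B (95% interval 84.2% to 98.7%, log2 difference -0.13 ± 0.05, limma adjusted p = 0.145) and 90.3% in si-UQCRC2 (83.4% to 97.7%, -0.15 ± 0.05, adjusted p = 0.174). Neither difference passed the adjustment. Between the siRNAs FAM210A differed by 0.02 ± 0.05 (adjusted p = 0.847), with an interval from -0.10 to 0.13. Its within-group SD of 0.0324, pooled over the 3 groups, was among the smallest, with 2.41% of tested genes at or below it, against 0.12 for FAM210B. With those arrays left out the FAM210A difference was -0.14 in si-FAM210B (adjusted p = 0.0534) and -0.15 in si-UQCRC2 (adjusted p = 0.0459).

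ALAS1, the entry enzyme, had the largest difference of any heme enzyme in si-FAM210B. Its arrays there read 7.63, 7.87 and 7.92, below the controls at 8.03, 8.11 and 8.01 without overlap. The si-UQCRC2 arrays, at 7.90, 7.92 and 7.99, also lay under all controls. In si-FAM210B the ALAS1 signal was 84.5% of control (95% interval 75.0% to 95.2%, log2 difference -0.24 ± 0.08, limma adjusted p = 0.0902, exact permutation p = 0.1, the smallest possible for 3 against 3 arrays). In si-UQCRC2 it was 92.5% (82.1% to 104%, adjusted p = 0.614). The siRNA groups differed by -0.13 ± 0.08 (adjusted p = 0.256). Replicate 1 of si-FAM210B read 0.26 below the mean of its group's other arrays. In the fit without both arrays that stood apart the ALAS1 difference was -0.18 (adjusted p = 0.0351), a pass in a fit that called 24.4% of genes.

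The cytosolic enzymes gave a mixed picture, with UROD higher and ALAD and UROS near control. UROD, which removes carboxyl groups from uroporphyrinogen, read 6.11, 6.13 and 6.16 in si-FAM210B, 5.96, 5.99 and 5.92 in control, and 5.98, 6.05 and 6.0 in si-UQCRC2. Its si-FAM210B arrays lay above all 6 others. The UROD difference from control was 0.18 ± 0.05 (95% interval 0.06 to 0.29, 113% of control, limma adjusted p = 0.0688) and from si-UQCRC2 0.13 ± 0.05 (adjusted p = 0.139). Leaving both arrays out, UROD rose by 0.17 against control (adjusted p = 0.0244) and by 0.14 against si-UQCRC2 (adjusted p = 0.0388).

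ALAD, which joins 5-aminolevulinate into porphobilinogen, ranged from 6.31 to 6.43 in si-FAM210B, 6.32 to 6.45 in control and 6.31 to 6.35 in si-UQCRC2. Its difference from control was -0.01 ± 0.06 in si-FAM210B and -0.05 ± 0.06 in si-UQCRC2, and the groups overlapped. UROS, which closes the ring, read 6.60 on si-FAM210B replicate 1 against 6.95 and 6.91 on its partners, with controls at 6.82, 6.80 and 6.82. The low array and the high pair lie on opposite sides of the controls, and the group mean differed from control by 0.00 ± 0.09 (interval -0.19 to 0.20). In si-UQCRC2 UROS differed by -0.02 ± 0.09. In the same reduced fit the UROS difference was 0.12 against control (adjusted p = 0.0817) and 0.14 against si-UQCRC2 (adjusted p = 0.0408).

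Of the final, mitochondrial enzymes, FECH was lower in both siRNA groups without passing the test, and CPOX and PPOX stayed within 0.10 of control. FECH, which inserts iron, read 7.63, 7.56 and 7.46 in control, 7.27, 7.48 and 7.46 in si-FAM210B, and 7.44, 7.39 and 7.40 in si-UQCRC2. The si-UQCRC2 arrays lay below every control and the si-FAM210B arrays did not all do so. FECH signal was 90.3% of control in si-FAM210B (interval 80.8% to 101%, limma adjusted p = 0.216) and 90.9% in si-UQCRC2 (81.4% to 102%, adjusted p = 0.429). Under the same omission the FECH differences were -0.13 (adjusted p = 0.0662) and -0.18 (adjusted p = 0.0171).

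CPOX, the coproporphyrinogen oxidase, read 5.79, 6.0 and 5.88 in si-FAM210B against 5.97, 6.03 and 5.97 in control, a difference of -0.10 ± 0.06 (adjusted p = 0.312). In si-UQCRC2 it read 5.97, 6.02 and 5.97, a difference of -0.01 ± 0.06. The si-UQCRC2 values of CPOX fell inside the control range, and its lowest value was again that of si-FAM210B replicate 1. PPOX, the protoporphyrinogen oxidase, ranged from 5.36 to 5.46 in si-FAM210B, 5.36 to 5.37 in control and 5.31 to 5.41 in si-UQCRC2, with differences of 0.04 ± 0.05 and -0.01 ± 0.05. The direction of PPOX turned under other scalings of the arrays.

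**Figure D2:**
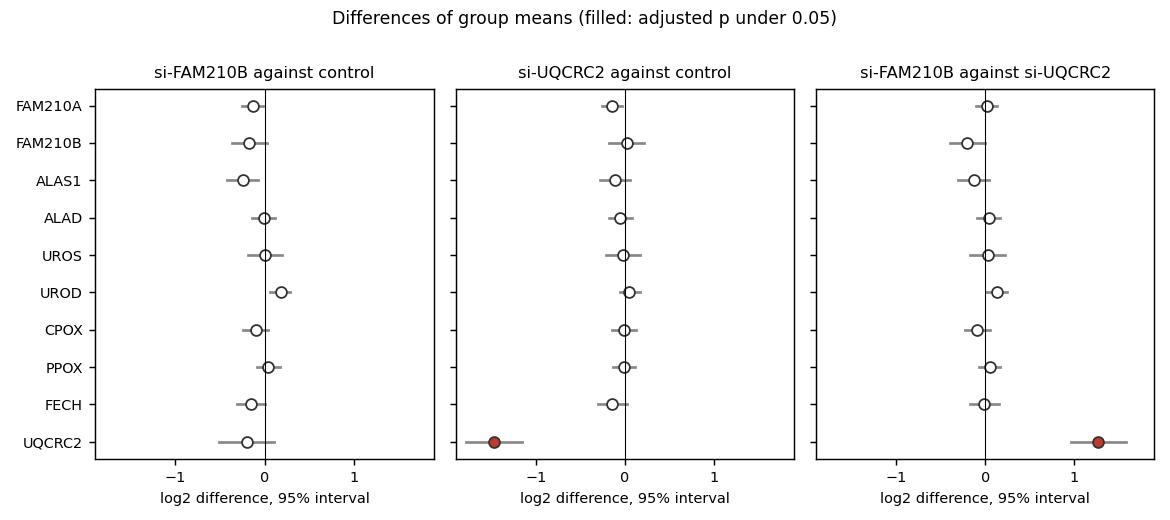
Log2 differences of group means (horizontal axis) with 95% intervals for the 9 members and, for scale, UQCRC2 in the 3 comparisons; filled symbols have an adjusted p under 0.05. Only UQCRC2 is filled, at -1.47 and 1.27, and every member lies between -0.24 and 0.18.

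Across the 7 enzymes the median log2 difference was -0.01 in si-FAM210B, -0.02 in si-UQCRC2 and 0.03 between the siRNAs, beside medians of 0.03, -0.01 and 0.05 over all genes. Groups did not overlap for 3 of 9 members in si-FAM210B, beside 24.0% of all genes, with UROD higher (11.7% of genes) and FAM210A and ALAS1 lower (12.3%). In si-UQCRC2 this held for 3 of 9, beside 29.2%, with FAM210A, ALAS1 and FECH lower (14.9%) and no member higher (14.2%). Between the siRNAs it held for 1 of 9, beside 41.7%, with UROD higher (22.1%) and no member lower (19.7%). Leaving out both arrays that stood apart, the calls in si-FAM210B were UROD higher (11.2% of all genes) and FAM210B and ALAS1 lower (13.1%). In si-UQCRC2 they were FAM210A and FECH lower (8.91%), with none higher (8.23%). Between the siRNAs they were UROS and UROD higher (11.0%) and FAM210B lower (13.0%). The array that stood apart in si-FAM210B was below the mean of its partners by 0.33 for UROS and 0.26 for ALAS1. It was also below by 0.20 for FECH and 0.15 for CPOX, and above by 0.31 for FAM210B. The median signed shift over all genes was 0.04, in which rises and falls cancel, so it does not measure the usual size of a shift. For within-group SDs pooled over the 3 groups, 21.5% (CPOX) to 64.0% (FAM210B) of tested genes lay at or below these members. A pooled SD does not measure the shift of a single array. Within si-FAM210B the SD was 0.192 for UROS, 0.191 for FAM210B and 0.151 for ALAS1, above that group's median of 0.13. It was 0.116 for FECH and 0.104 for CPOX, below that median. With si-FAM210B replicate 1 alone left out, FAM210B and UROD were called in si-FAM210B against control and FAM210B between the siRNAs. No other member was then called in any comparison.

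The genes whose profile over the 9 arrays was most like that of FAM210B were MAD2L2, a mitotic and DNA polymerase zeta protein (Pearson r = 0.960), the splicing factor PRPF40B (0.946) and the amino acid transporter SLC43A2 (0.943). None of these differed from control beyond the test in si-FAM210B (log2 differences -0.12, -0.08 and -0.11), and r was 0.928 to 0.931 after group means were removed. For FAM210A they were the zinc finger gene ZNF230 (0.971), the chromatin assembly subunit CHAF1A (0.968) and the Fanconi anemia gene FANCC (0.953). After group means were removed r was 0.599 to 0.824. All 3 were called lower in both siRNA groups, beside 3.5% and 1.44% of all genes. ZNF230 differed by -0.31 and -0.30, CHAF1A by -0.22 and -0.27, and FANCC by -0.20 and -0.22. For ALAS1 they were the forkhead gene FOXJ3 (0.987), the zinc transporter SLC39A9 (0.979) and SPR, sepiapterin reductase (0.974). Of those, SPR was called in si-FAM210B (-0.33, adjusted p = 0.0488). These are the 3 highest correlations among the protein-coding genes tested, over arrays that share their groups and their deviating libraries. Because the genes were picked over the same arrays, their directions follow from the choice and are no separate result.

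Around the members, 83 further genes were listed, 7 of them mitochondrial genes studied with FAM210 proteins and the others genes of heme and iron handling, of which 72 had a row and 69 were tested. In si-FAM210B 2 of the 69 rose and 8 fell (14.5%, beside 6.28% of all genes, of which 2.78% rose and 3.5% fell), and 1 of the 8, PDK4, is from the FAM210 list. In si-UQCRC2 2 rose and 1 fell (4.35%, beside 4.46%), and between the siRNAs 4 were higher and 9 lower in si-FAM210B (18.8%, beside 9.78%), PDK4 and ATAD3A of the FAM210 list among them. Without both arrays that stood apart, 6 rose and 18 fell in si-FAM210B and 7 rose and 13 fell in si-UQCRC2, in fits that called 24.4% and 17.1% of all genes. The lists were chosen with earlier results of these data known, so their counts describe the lists only.

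Of 4 heme breakdown genes HMOX1 alone was called (25% in each comparison, beside 6.28%, 4.46% and 9.78% of all genes). Its directions under the siRNAs were opposite. HMOX1, heme oxygenase 1, the inducible enzyme that opens heme, read 8.29, 8.18 and 8.24 in si-FAM210B, 7.76, 7.83 and 7.84 in control and 7.37, 7.36 and 7.32 in si-UQCRC2. No group overlapped another. HMOX1 rose to 134% of control in si-FAM210B (log2 difference 0.42 ± 0.05, adjusted p = 0.00231) and fell to 72.7% in si-UQCRC2 (-0.46 ± 0.05, adjusted p = 0.00121). The direct contrast of si-FAM210B with si-UQCRC2 was 0.88 ± 0.05 (adjusted p = 2.71e-05). Constitutive HMOX2 and the biliverdin reductases BLVRA and BLVRB were not called in any comparison of all 9 arrays, with differences from -0.12 to 0.09 against control. Without both arrays that stood apart, 1 of these genes was called lower in si-FAM210B than in si-UQCRC2, beside 13.0% of all genes.

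Among transporters of heme, porphyrins and mitochondrial iron, 15 of 16 were tested, and 1 rose and 2 fell in si-FAM210B, beside 2.78% and 3.5% of all genes. In si-UQCRC2 2 rose and none fell, beside 3.02% and 1.44%. SLC25A37 (mitoferrin 1), which brings iron into mitochondria, read 7.29, 7.51 and 7.49 in si-FAM210B, 7.10, 7.15 and 7.04 in control and 7.43, 7.41 and 7.41 in si-UQCRC2. All siRNA arrays lay above all controls. SLC25A37 rose by 0.34 ± 0.07 in si-FAM210B (adjusted p = 0.0217) and by 0.32 ± 0.07 in si-UQCRC2 (adjusted p = 0.0295), against the same controls. Leaving out single arrays ended the SLC25A37 call in 5 of 9 fits for si-FAM210B and 6 of 9 for si-UQCRC2, with adjusted p up to 0.0872 and 0.134.

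ABCG2, an exporter of drugs and porphyrins at the cell surface, had the largest change of the transporters. It read 6.98, 7.41 and 7.40 in si-FAM210B, 8.22, 8.13 and 7.90 in control and 7.81, 7.93 and 7.86 in si-UQCRC2. The si-FAM210B arrays lay below all others. ABCG2 fell to 56.6% of control in si-FAM210B (log2 difference -0.82 ± 0.12, adjusted p = 0.00442). In si-UQCRC2 it lay at 85.9% (adjusted p = 0.468). The siRNAs differed by -0.60 ± 0.12 (adjusted p = 0.0144, and up to 0.0699 without single arrays). Leaving out both arrays that stood apart, ABCG2 was called lower in si-UQCRC2 too (-0.31 against control, limma adjusted p = 0.00477).

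ABCB6, an ATP-driven porphyrin transporter, fell by 0.21 ± 0.05 in si-FAM210B (adjusted p = 0.0397), a call kept in 1 of 9 fits that each left out an array. SLC48A1 (HRG1), which moves heme out of endolysosomes, rose by 0.27 ± 0.06 in si-UQCRC2 (adjusted p = 0.0341, up to 0.173 without single arrays). Without both arrays that stood apart SLC48A1 was called higher in si-FAM210B too (0.17 against control, limma adjusted p = 0.0255). TMEM14C, a mitochondrial protoporphyrinogen transporter in mouse erythroid cells, was called only between the siRNAs (0.20 ± 0.05, adjusted p = 0.0348), being 0.09 above control in si-FAM210B and 0.11 below it in si-UQCRC2, and lost that call in 6 of 9 fits without a single array (adjusted p up to 0.157). PGRMC2, a heme chaperone, was likewise lower in si-FAM210B than in si-UQCRC2 (-0.23 ± 0.06, adjusted p = 0.0345), a call lost in 5 of 9 such fits (up to 0.138).

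**Figure D3:**
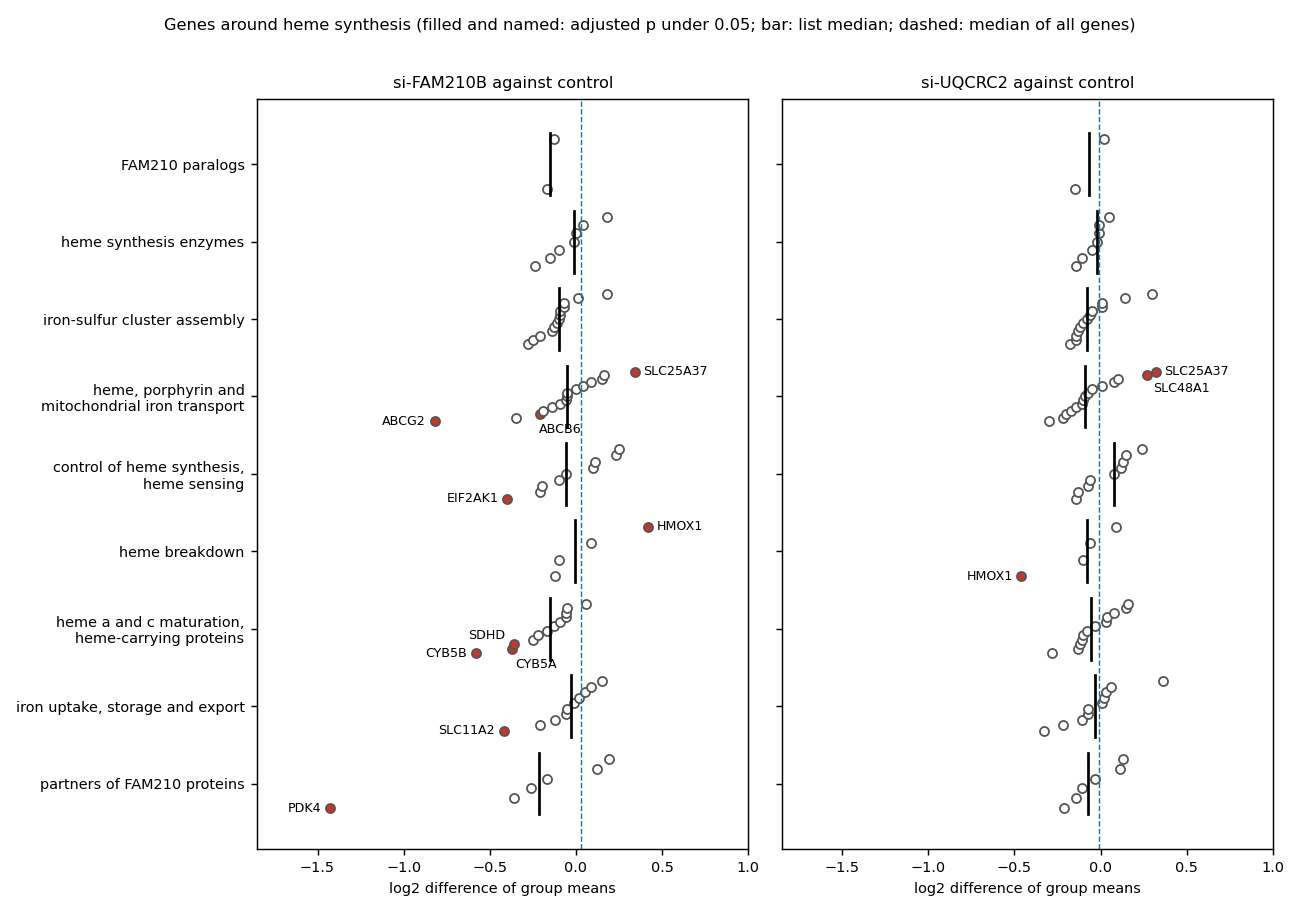
Log2 differences of group means from control (horizontal axis) for every tested gene of the paralogs, the heme enzymes and 7 surrounding lists (rows); filled, named symbols have an adjusted p under 0.05, black bars are list medians and the dashed line is the median of all genes. Called genes of si-FAM210B lie mostly on the left, from PDK4 at -1.43 to ABCB6 at -0.21, with HMOX1 and SLC25A37 on the right.

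Of 9 tested regulators of heme synthesis and heme sensors, EIF2AK1 alone was called in si-FAM210B (11.1%, beside 6.28% of all genes). EIF2AK1 (HRI) is the kinase that slows translation when heme is short. It read 8.87, 9.0 and 9.08 in si-FAM210B, 9.46, 9.36 and 9.34 in control and 9.33, 9.28 and 9.35 in si-UQCRC2, with the si-FAM210B arrays below all others. EIF2AK1 fell to 75.6% of control (-0.40 ± 0.07, adjusted p = 0.00839) and differed from si-UQCRC2 by -0.33 ± 0.07 (adjusted p = 0.0147, and up to 0.0808 without single arrays). PPARGC1B, a coactivator of mitochondrial genes, was higher in si-FAM210B than in si-UQCRC2 (0.29 ± 0.07, adjusted p = 0.0302), a call lost in 4 of 9 fits without a single array (up to 0.119). None of the 9 was called in si-UQCRC2 against control. There NR1D1, a heme-binding repressor, had the smallest p of the list (0.13 ± 0.05, adjusted p = 0.288). Without both arrays that stood apart NR1D1 was called (0.15, limma adjusted p = 0.0289), in a fit that called 17.1% of all genes.

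Of 12 tested genes of heme a and c maturation and heme-carrying proteins, 3 fell in si-FAM210B, beside 3.5% of all genes. CYB5B, the cytochrome b5 of the outer mitochondrial membrane, read 6.87, 7.11 and 7.21 there, 7.71, 7.65 and 7.56 in control and 7.61, 7.66 and 7.76 in si-UQCRC2. Its si-FAM210B arrays lay below all others, and CYB5B fell to 67.1% of control (-0.58 ± 0.09, adjusted p = 0.0061). CYB5A, the microsomal cytochrome b5, fell by 0.37 ± 0.07 (adjusted p = 0.0139) and SDHD, a heme-anchoring subunit of complex II, by 0.36 ± 0.07 (adjusted p = 0.0210). All 3 were also lower than in si-UQCRC2 (CYB5B -0.61, CYB5A -0.25, SDHD -0.28, adjusted p = 0.00339, 0.0497 and 0.0408). Without single arrays that call was lost in 7 of 9 fits for CYB5A and 6 of 9 for SDHD, with adjusted p up to 0.168 and 0.163. In si-UQCRC2 against control none of the 12 was called. COX10, which begins the conversion of heme b to heme a, had the smallest p there (-0.28 ± 0.08, adjusted p = 0.0966). Without both arrays that stood apart COX10 was called lower in si-UQCRC2 (-0.3, limma adjusted p = 0.00599).

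Iron uptake, storage and export gave 1 call among 10 tested genes in si-FAM210B (10%, beside 6.28% of all genes). SLC11A2 (DMT1), which carries ferrous iron across endosomal and plasma membranes, read 6.25, 6.52 and 6.53 there, 6.87, 6.91 and 6.78 in control and 6.89, 6.87 and 6.84 in si-UQCRC2. It fell to 74.5% of control (-0.42 ± 0.08, adjusted p = 0.0147) and was lower than in si-UQCRC2 (-0.44 ± 0.08, adjusted p = 0.00937), without overlap in either. SLC40A1 (ferroportin), the iron exporter, was lower in si-FAM210B than in si-UQCRC2 (-0.37 ± 0.09, adjusted p = 0.03). That call was lost in 4 of 9 fits without a single array (up to 0.114). In si-UQCRC2 SLC40A1 differed from control by 0.36 ± 0.09 (adjusted p = 0.0504). Without both arrays that stood apart this difference was called (0.32, limma adjusted p = 0.00176). The transferrin receptor TFRC was not called (-0.21 and -0.33 against control, and called at -0.14 and -0.41 without both arrays that stood apart), nor was the ferritin light chain FTL (-0.12 and -0.11).

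**Figure D4:**
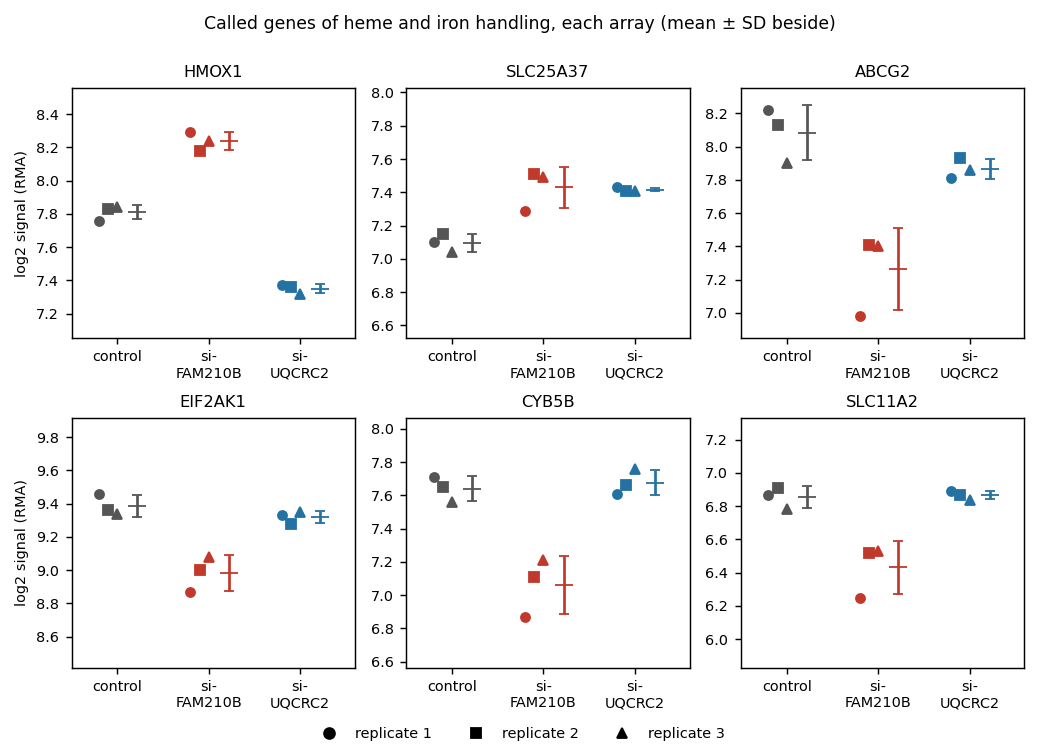
Log2 RMA signal (vertical axis, the same 1.5-unit span in every panel) of 6 called genes of heme and iron handling in the 3 groups; symbols are single arrays by replicate number and the bar beside them is the mean ± SD of 3 arrays. HMOX1 separates into 3 levels, SLC25A37 is raised in both siRNA groups, and ABCG2, EIF2AK1, CYB5B and SLC11A2 are lowest in si-FAM210B.

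None of 13 tested genes of iron-sulfur cluster assembly, which shares the mitochondrial iron supply with FECH, was called in any comparison, beside 6.28%, 4.46% and 9.78% of all genes. The list's median was -0.10 in si-FAM210B and -0.08 in si-UQCRC2. Smallest in p were FDX1, a ferredoxin (-0.28 ± 0.08, adjusted p = 0.0793), in si-FAM210B, HSCB, a co-chaperone (-0.14 ± 0.05, adjusted p = 0.206), in si-UQCRC2, and the scaffold ISCU between the siRNAs (-0.39 ± 0.11, adjusted p = 0.0549). In the reduced fit these became -0.29 (adjusted p = 0.0372), -0.12 (adjusted p = 0.0518) and -0.25 (adjusted p = 0.00656).

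Of 6 tested mitochondrial genes that have been studied together with FAM210 proteins, PDK4, an inhibitory kinase of pyruvate dehydrogenase, fell in si-FAM210B to 37.2% of control (-1.43 ± 0.09, adjusted p = 2.86e-05). No other gene of the list was called there (16.7%, beside 6.28% of all genes). Between the siRNAs PDK4 and ATAD3A were called (33.3%, beside 9.78%). PDK4 read 4.64, 4.65 and 4.75 in si-FAM210B, 6.23, 6.13 and 5.95 in control and 6.05, 6.24 and 6.34 in si-UQCRC2. ATAD3A, an inner membrane ATPase reported to bind FAM210A, was higher in si-FAM210B than in si-UQCRC2 (0.39 ± 0.07, adjusted p = 0.00653). Against control ATAD3A differed by 0.19 and -0.21, with no overlap on either side and no call. Without both arrays that stood apart both ATAD3A differences were called. They were 0.21 in si-FAM210B (limma adjusted p = 0.0114) and -0.15 in si-UQCRC2 (adjusted p = 0.0308). ATAD3A has a near-identical neighbour, ATAD3B, whose RNA its probes may also read. YME1L1, OPA1 and TOMM70 were not called in any comparison of all 9 arrays, and without both arrays that stood apart they were called in si-FAM210B against control (-0.26, -0.23 and -0.18). In that fit 2 genes of the list were called lower in si-UQCRC2 (8.91% of all genes), ATAD3A being 1 of them. Between the siRNAs 2 were called higher (11.0%) and 2 lower (13.0%) in si-FAM210B, so calls there were not confined to ATAD3A and PDK4.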

How the data were processed

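The authors deposited log2 signals in a single matrix, and RMA is the method named, per the submitters' processing notes. It corrects background, equalises the distributions of the arrays and condenses probes into rows, which can compress differences of weak transcripts. RMA's version and the genome build were not given in the sources used here. Array medians of the deposited log2 values ran from 4.20 to 4.40, and with arrays the number of arrays, not a counting depth, limits precision.

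Of 67528 rows, 23781 had 1 gene symbol, updated through RefSeq records (GRCh38.p14, names only). A gene was read from its row with the highest mean and 15964 genes at or above 4.25 (the median over rows) were tested. All 9 arrays entered 1 limma fit (limma 3.58.1, R 4.3.3, lmFit and eBayes, no covariates, 6 residual degrees of freedom). Adjusted p-values are limma's with Benjamini-Hochberg over all tested genes, ± after a difference is its SE, and intervals are at 95%. The exact permutation test was two-sided. Since separate cultures are not stated, the p-values may reflect technical spread only.

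The members and lists were chosen with earlier results of these data known. Named are all members, UQCRC2, the 3 protein-coding genes most correlated with FAM210B, FAM210A and ALAS1, and the called genes of each list, or in their absence the smallest p. HMOX2, BLVRA, BLVRB, TFRC, FTL, YME1L1, OPA1 and TOMM70 were added after their values were seen. On simulated data with the real means and SDs, the fit for si-FAM210B against control was tried on 15964 genes. It called 31.3% of genes given a log2 change of 0.3, 74.6% at a change of 0.6 and 95.5% at a change of 1. Of its calls 2.9% were false. The simulated noise was independent between arrays, with the same SD of a gene in every group. Real median SDs differed (0.13, 0.0878 and 0.0379 in si-FAM210B, control and si-UQCRC2) and whole arrays stood apart, so these rates may not hold for the real data. The alternatives were 3 level or row rules, 3 scalings, a fit of only the groups compared, array weights, another prior, the replicate number as a block, and fits without single arrays or without both that stood apart.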

Additional observations from a re-analysis of the deposited data

How the results depend on the processing

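Several differences near 0 turned sign under other settings; of these, UROS between the siRNAs was called under array weights and without both arrays that stood apart. Quantile normalization gave si-FAM210B against si-UQCRC2 differences of 0.00 for FAM210A, -0.01 for PPOX and 0.02 for FECH, and against control PPOX of -0.01 and 0.00. With median centring the differences between the siRNAs were -0.07 for FAM210A, -0.04 for ALAD, -0.06 for UROS and -0.03 for PPOX. Against control they were -0.07 for UROS and -0.03 for PPOX in si-FAM210B and 0.01 for CPOX and PPOX in si-UQCRC2. Cyclic loess gave -0.01 for FAM210A, -0.03 for PPOX and 0.00 for FECH between the siRNAs, -0.03 for PPOX in si-FAM210B, and 0.00 for CPOX and PPOX in si-UQCRC2. Array weights gave 0.04 for ALAD and 0.00 for PPOX in si-FAM210B and 0.04 for FECH between the siRNAs, and FECH was 0.06 there without both arrays that stood apart. With single arrays left out, ALAD ran from -0.04 to 0.03 and UROS from -0.06 to 0.11 in si-FAM210B, UROS from -0.04 to 0.14 and FECH from -0.05 to 0.06 between the siRNAs, and FAM210B from -0.01 to 0.06, CPOX from -0.02 to 0.01 and PPOX from -0.03 to 0.02 in si-UQCRC2.

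The count of members called, 0 in each comparison, became 6, 3 and 3 with array weights (FAM210A, FAM210B, ALAS1, UROD, CPOX and FECH in si-FAM210B, with FAM210B at -0.23), which gave si-FAM210B replicate 1 a weight of 0.0933 and called 7018, 4145 and 7002 genes and 35, 30 and 35 list genes. Without both arrays that stood apart it was 3, 2 and 3, with FAM210B at -0.26, 3889, 2736 and 3835 genes and 24, 20 and 25 list genes. Median centring called 1 member, FAM210B, between the siRNAs, and 559 genes in si-FAM210B. With single arrays left out, members called ran from 0 to 2 in si-FAM210B (FAM210B and UROD without replicate 1), 0 to 0 in si-UQCRC2 and 0 to 1 between the siRNAs. FAM210B then ran from -0.28 to -0.09 in si-FAM210B, genes called from 306 to 1975, 249 to 1654 and 505 to 3280, and list genes from 5 to 13, 1 to 11 and 5 to 18. Fits of only the compared groups called 227, 1449 and 1040 genes and 4, 11 and 7 list genes. The replicate block called 409, 342 and 798 genes, 6, 1 and 7 list genes and no member. Deviations of same-numbered arrays from their group means correlated from -0.584 to 0.512. With 3 centred arrays a group, this neither shows nor excludes a pairing by number. The arrays that stood apart, si-FAM210B replicate 1 and control replicate 3, correlated at 0.742. In si-UQCRC2 the list genes called, 2 higher and 1 lower, were 1 higher and 2 lower after quantile normalization. HMOX1 and PDK4 in all their called comparisons, and ABCG2, EIF2AK1 and CYB5B in si-FAM210B against control, kept their calls without any single array, whereas CYB5A, SDHD and SLC11A2 lost theirs without 1 or more. The cause of these shifts was not tested. With 3 arrays a group, the size of difference that the test calls depends on the SE of the gene. In si-FAM210B against control ABCB6 was called at -0.21 ± 0.05, whereas FDX1 was not at -0.28 ± 0.08.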

Other observations

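Of 16 markers of red cell precursors, the usual setting of FAM210B in heme synthesis, 9 had a row and 6 of these were at or above the level cut of 4.25. HBB (beta globin), AHSP (a chaperone of alpha globin) and HEMGN were under it on average. Group means of the erythroid transcription factors were 7.06 to 7.23 for KLF1 and 5.66 to 5.82 for GATA1, and those of the anion exchanger SLC4A1 were 5.35 to 5.52. Each row has its own probes, so these levels are not ranked against each other. HBB had group means of 3.64 in si-FAM210B, 3.41 in control and 3.46 in si-UQCRC2. ALAS2, the erythroid form of the first heme enzyme, lay near the cut at 4.37 ± 0.09 (SD, n = 3), 4.27 ± 0.15 and 4.19 ± 0.02 in the same order. None of the 6 tested markers was called in any comparison, and their median difference in si-FAM210B was 0.13.

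The 10 markers of A549-type epithelium were the keratins KRT7, KRT8, KRT18 and KRT19, EPCAM, CDH1 and the enzymes AKR1B10, AKR1C1, ALDH1A1 and ALDH3A1. Of these 10, 3 fell and none rose in si-FAM210B, beside 3.5% and 2.78% of all genes. In si-UQCRC2 2 rose and none fell, beside 3.02% and 1.44%. The summed log2 signal of the 10 ran from 92.39 to 93.84 in si-FAM210B, 95.42 to 95.97 in control and 96.47 to 97.07 in si-UQCRC2, without overlap. CDH1 (-1.09 ± 0.06), ALDH3A1 (-0.46 ± 0.06) and AKR1C1 (-0.36 ± 0.09) fell in si-FAM210B, and KRT19 (0.73 ± 0.07) and EPCAM (0.24 ± 0.06) rose in si-UQCRC2. Apart from the enzymes, CDH1 alone was called lower in si-FAM210B. Without a call, differences ran both ways, with 2 of 10 above 0 in si-FAM210B (KRT19 0.24 and KRT7 0.09) and 4 of 10 below 0 in si-UQCRC2 (CDH1 -0.13, ALDH3A1 -0.08, AKR1C1 -0.07 and AKR1B10 -0.07). Of 7 markers of leukocytes, endothelium and fibroblasts, PTPRC, PECAM1 and DCN were under the level cut. The other 4, CD68, CD3E, CDH5 and COL1A1, reached it, so reaching the cut does not mark a cell type. Against control all 4 lay above 0 in si-FAM210B, and 2 above and 2 below 0 in si-UQCRC2. The summed signal of all 7 ran from 32.68 to 33.70 in si-FAM210B, 31.30 to 32.21 in control and 31.90 to 32.39 in si-UQCRC2. CD68 rose by 0.70 ± 0.06 in si-FAM210B and by 0.64 ± 0.06 in si-UQCRC2. Their part in the differences of heme and iron genes was not tested.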
